A study of Mus musculus with 12 samples.

Results

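A set of 8 genes of T cell costimulation and its checkpoints were followed in mouse lung tissue: the receptors Ctla4, Cd28, Icos and Pdcd1, the ligands Cd80, Cd86 and Pdcd1lg2, and Cd40, a receptor of antigen-presenting cells. The genes were chosen by name, with earlier results of these data known, as 8 of the 734 endogenous genes on a NanoString nCounter panel. Counts of the 8 called are therefore descriptions and no test of the set. On the panel each RNA is counted directly through a barcoded probe, with no amplification step. All 8 passed the filter on low counts, which left 665 genes for testing. RNA came from the post-caudal lobe of 12 mice that had received PBS or an allergen mixture called DRA in the labels, which do not expand the name, by the intranasal route 2 times a week for 8 weeks. PBS was given to 2 wild type mice (B6_PBS), and DRA to 5 wild type littermates (B6_DRA) and to 5 Chil4-deficient mice (KO_DRA). The labels call the deficient mice both knockdown and knockout and do not say how Chil4 was disrupted. Chil4-deficient mice without allergen were not analysed here, so an effect of the deficiency without allergen cannot be told apart from one that needs allergen.

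A T cell that has recognised antigen needs a second signal to be fully activated. CD28 delivers it on binding CD80 or CD86 on antigen-presenting cells, and CTLA-4 binds the same ligands more tightly and restrains activation. ICOS is a related costimulatory receptor induced on activated T cells, while PD-1 (Pdcd1) is an inhibitory receptor bound by PD-L1 (Cd274) and PD-L2 (Pdcd1lg2). CD40, engaged by CD40 ligand on helper T cells, licenses B cells, dendritic cells and macrophages and induces CD80 and CD86 on them. In allergic lungs these molecules act in the helper T cell response to inhaled proteins and in its restraint by regulatory T cells.

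Libraries held 304387 to 651815 endogenous counts. The mean of the negative controls was between 2.75 and 5.63. The endothelial genes Cdh5, Tek and Flt1 were above background in all 12 libraries. Chil4 gave 5121 and 4406 counts in B6_PBS and 13020 to 89957 in B6_DRA. It gave 8221, 5676, 24313 and 12198 counts in KO_DRA 9 to 12, but 111850 in the library labelled KO_DRA 8, the highest of all 12. Where the Chil4 probe binds relative to the altered part is not stated in the labels. By this count that library goes against its label, but the count does not sort the genotypes: KO_DRA 11 held more than wild type B6_DRA 5. On the scaled levels used below KO_DRA 12 did too, at 34151 against 31470 CPM, and all 5 KO_DRA libraries lay above both B6_PBS libraries. Chil4 did not pass the edgeR test in KO_DRA against B6_DRA (log2 fold change -0.92, adjusted p = 0.535). Its value of -2.27 without the library labelled KO_DRA 8 is no test, since the same count singled that library out. The genotype results for the 8 genes are therefore given with and without the library labelled KO_DRA 8. That library also had the highest summed levels of macrophage and dendritic cell markers in KO_DRA. Leaving it out takes those levels from this group alone, which limits any call gained without it. Levels below are CPM, counts divided by a library size scaled by the trimmed mean of M-values (TMM), and a gene's level is compared between libraries, never with another gene's level.

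The promoter table used here held 4 of the 8 genes, and the 250 bases before each RefSeq start (GRCm38.p6) are shown. These genes had higher estimates in B6_DRA and in KO_DRA than in the wild type B6_PBS libraries. Capitals mark matches, on either strand, to 4 motifs: the STAT6-type TTCNNNNGAA, the AP-1 motif TGANTCA, the NF-kB-type GGGNNNNNCC and the NFAT core GGAAA. The STAT-type motif with a shorter spacer, TTCNNNGAA, was also searched and matched none of the 4 windows. Adjoining matches run together. The Ctla4 window lies at chr1:60908775-60909024 on the plus strand, Pdcd1 at chr1:94052554-94052803 on the minus strand, Cd80 at chr16:38458683-38458932 and Pdcd1lg2 at chr19:29410669-29410918, both on the plus strand.
Ctla4: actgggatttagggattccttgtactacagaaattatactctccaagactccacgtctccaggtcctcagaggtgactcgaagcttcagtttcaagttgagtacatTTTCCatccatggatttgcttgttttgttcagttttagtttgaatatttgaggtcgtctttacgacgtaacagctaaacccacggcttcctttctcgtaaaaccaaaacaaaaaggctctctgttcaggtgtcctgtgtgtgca
Pdcd1: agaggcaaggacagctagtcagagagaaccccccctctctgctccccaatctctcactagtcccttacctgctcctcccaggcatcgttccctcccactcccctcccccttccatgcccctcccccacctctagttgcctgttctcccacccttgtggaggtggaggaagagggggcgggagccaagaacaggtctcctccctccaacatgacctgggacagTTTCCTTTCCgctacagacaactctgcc
Cd80: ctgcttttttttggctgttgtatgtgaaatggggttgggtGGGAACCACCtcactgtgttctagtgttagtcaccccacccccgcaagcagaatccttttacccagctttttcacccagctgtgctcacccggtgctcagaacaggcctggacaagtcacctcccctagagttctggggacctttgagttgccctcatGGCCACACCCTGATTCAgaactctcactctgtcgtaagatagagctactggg
Pdcd1lg2: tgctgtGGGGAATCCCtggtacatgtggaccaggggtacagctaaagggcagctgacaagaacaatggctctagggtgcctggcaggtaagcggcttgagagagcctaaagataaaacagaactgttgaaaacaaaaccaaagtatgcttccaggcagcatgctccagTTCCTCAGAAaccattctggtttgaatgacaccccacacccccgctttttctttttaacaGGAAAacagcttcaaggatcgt
The window of Pdcd1lg2 held the STAT6-type match TTCCTCAGAA at 82 to 73 bases before the start, a motif present in 5.85% of 32851 such windows. It also held the NF-kB-type match GGGGAATCCC at 244 to 235 bases, a motif found in 45.8% of windows, and 1 NFAT core. The Cd80 window held the AP-1 match TGATTCA at 42 to 36 bases, a motif found in 6.75% of windows, and 2 NF-kB-type matches, 1 of which adjoined it. The windows of Ctla4 and Pdcd1 held the NFAT core alone, once and 2 times, and 55.6% of all windows hold it. Cd28, Ctla4 and Icos follow one another on chromosome 1 with no other protein-coding gene between them, and Pdcd1lg2 lies next to Cd274 on chromosome 19.

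Allergen exposure of wild type mice raised 6 of the 8 genes: all the receptors but Cd28 and all 3 ligands. Ctla4 rose 5.95-fold, Pdcd1 3.75-fold, Pdcd1lg2 3.43-fold, Cd80 2.75-fold, Icos 2.18-fold and Cd86 1.92-fold. Cd28 and Cd40 did not pass the test. Of all genes tested, 23.8% were called higher and 18.2% lower in B6_DRA than in B6_PBS, by edgeR's quasi-likelihood test with Benjamini-Hochberg adjustment at 0.05. The median log2 fold change was 1.29 over the 8 genes and -0.01 over all 665. Unseparated lung tissue was measured, so more cells of a type cannot be told apart from more RNA per cell.

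**Figure D1:**
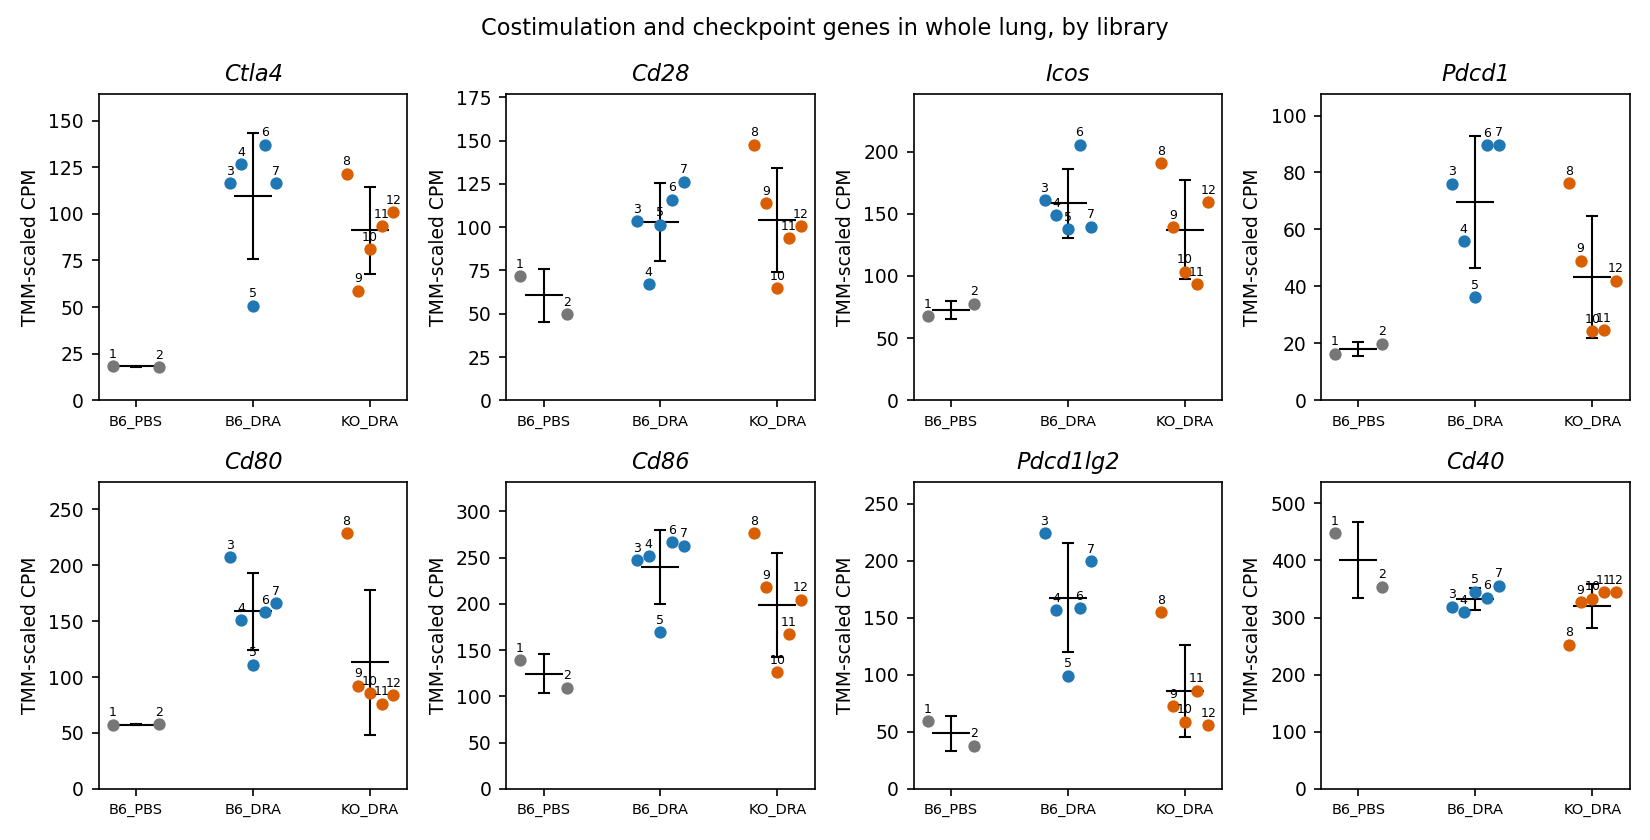
TMM-scaled CPM of each gene (vertical axis, linear, from 0) in the 2 B6_PBS, 5 B6_DRA and 5 KO_DRA libraries, each point labelled with its replicate number. Lines and bars are group means and SD. The 7 genes other than Cd40 have their lowest mean in B6_PBS. The library labelled KO_DRA 8 is the highest of KO_DRA for the same 7, standing apart for Cd80, and lies below the others for Cd40.

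Ctla4, the inhibitory receptor of activated and regulatory T cells, stood at 18.4 and 17.9 CPM in B6_PBS and at 116, 127, 50.8, 137 and 116 CPM in B6_DRA 3 to 7. Every allergen library lay above both PBS libraries, and B6_DRA 5 lay apart below the other B6_DRA libraries. The difference was 2.57 on the log2 scale (SE 0.431, adjusted p = 0.00548 by edgeR, 95% interval of the fold 3.10 to 11.4). The PBS values rest on 9 counts in each library, with an exact Poisson interval of 4.12 to 17.1 counts that covers counting error only, against a background of 6.41 and 6.57 counts.

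Pdcd1, which encodes the inhibitory receptor PD-1, stood at 16.4 and 19.9 CPM in B6_PBS, from 8 and 10 counts. In B6_DRA 3 to 7 it stood at 76.1, 55.9, 36.3, 89.6 and 89.8 CPM, all above the PBS libraries. The log2 fold change was 1.91 (SE 0.517, edgeR adjusted p = 0.0210). Icos, the inducible costimulator, stood at 67.5 and 77.6 CPM in B6_PBS and at 161, 149, 138, 206 and 139.7 CPM in B6_DRA 3 to 7. Again the groups did not overlap, and the log2 fold change was 1.12 (SE 0.287, edgeR adjusted p = 0.0198).

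Cd28, the costimulatory receptor carried by resting T cells, stood at 71.6 and 49.7 CPM in B6_PBS and at 104, 67.0, 102, 116 and 126 CPM in B6_DRA 3 to 7. B6_DRA 4 lay below B6_PBS 1, so the groups overlapped. Its log2 fold change of 0.75 (SE 0.326, 95% interval 0.04 to 1.46) did not pass the test (edgeR adjusted p = 0.0797). Although Ctla4 lies next to Cd28 on the chromosome, its count relative to that of Cd28 moved from 0.27 and 0.37 in B6_PBS to between 0.51 and 1.88 in B6_DRA.

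Cd80, an inducible ligand of CD28 and CTLA-4, stood at 57.3 and 57.7 CPM in B6_PBS and at 207, 151, 111, 158 and 166 CPM in B6_DRA 3 to 7. All 5 allergen libraries lay above both PBS libraries, with a log2 fold change of 1.46 (SE 0.437, edgeR adjusted p = 0.0288). Cd86, the other ligand of the same receptors, stood at 139 and 109 CPM in B6_PBS and at 247, 251, 169, 266 and 263 CPM in B6_DRA 3 to 7. It did not overlap either, and its log2 fold change was 0.94 (SE 0.284, edgeR adjusted p = 0.0288).

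Pdcd1lg2, which encodes the PD-1 ligand PD-L2, stood at 59.3 and 37.8 CPM in B6_PBS and at 224, 156, 99.1, 158 and 199.5 CPM in B6_DRA 3 to 7. B6_DRA 5 was the lowest of its group and still lay above both PBS libraries. On the log2 scale it rose by 1.78 (SE 0.445, edgeR adjusted p = 0.0174). Its chromosomal neighbour Cd274, the other PD-1 ligand, was chosen for mention after its values were seen. Cd274 stood at 354 and 314 CPM in B6_PBS and 346 to 668 CPM in B6_DRA, which overlap, with a log2 fold change of 0.65 (SE 0.365, edgeR adjusted p = 0.158).

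Cd40 had its highest levels without allergen, at 448 and 354 CPM in B6_PBS against 319, 309, 346, 335 and 356 CPM in B6_DRA 3 to 7. The groups overlapped by B6_DRA 7 alone. Its log2 fold change of -0.27 (SE 0.142, 95% interval -0.58 to 0.04) did not pass the test (edgeR adjusted p = 0.136).

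For 6 genes B6_DRA and B6_PBS did not overlap, as for 30.8% of all genes in the upward direction. These calls depend on both PBS libraries: without either B6_PBS 1 or B6_PBS 2, none of the 8 genes passed edgeR's test, and none of all genes did, while the log2 fold change of Ctla4 was 2.59 or 2.55. Cd80 and Cd86 missed the threshold without B6_DRA 3 or B6_DRA 7, with adjusted p from 0.0501 to 0.0529, and Cd86 missed it without B6_DRA 6 (0.0513). With library size in place of TMM the median of all genes moved to -0.66 and 3 of the 8 passed upward (Ctla4, Pdcd1 and Pdcd1lg2), beside 8.42% of all genes. On that scale Cd40 passed downward, with a log2 fold change of -0.93 and an edgeR adjusted p of 0.0405, beside 34% of all genes. Chil3, Chil4 and Retnla, 3 genes of secreted proteins, took 2.97% to 44.8% of the counts that make up the library size.

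**Figure D2:**
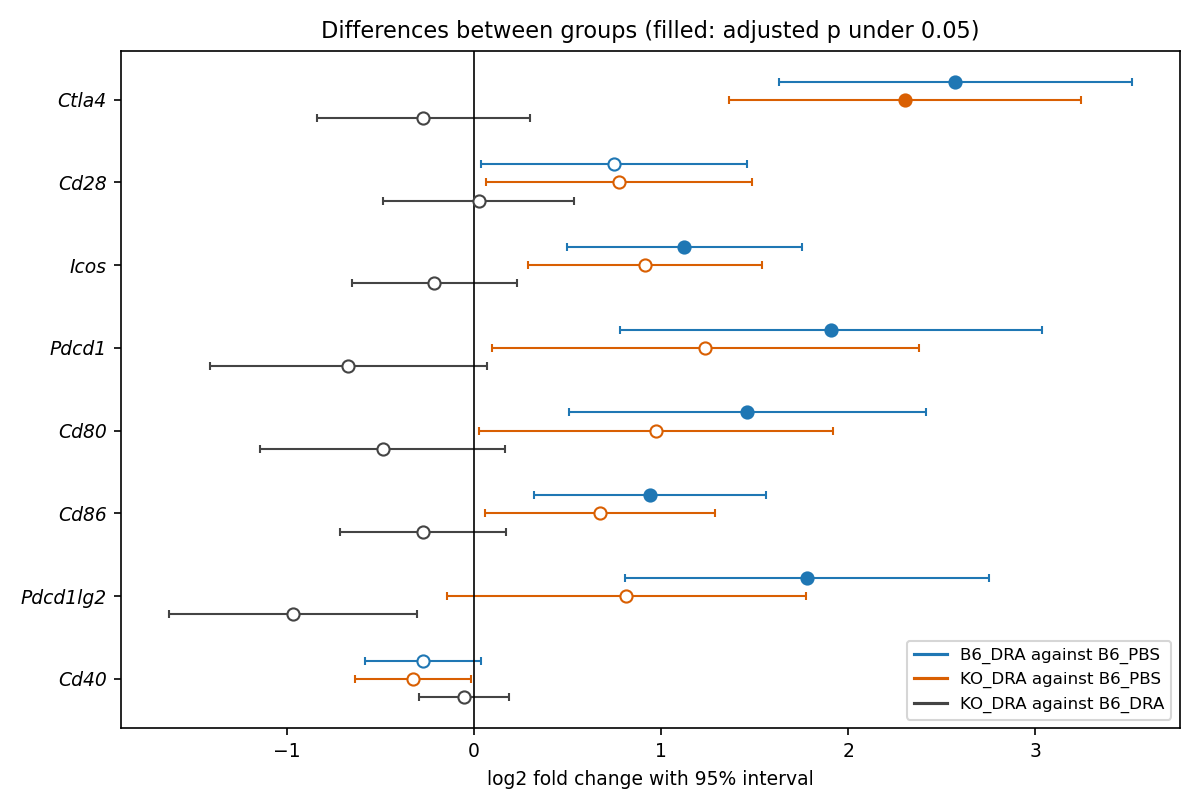
log2 fold change of each gene (horizontal axis) with its 95% interval from the edgeR fit, in 3 comparisons shown by colour. Filled points have an adjusted p under 0.05: 6 genes for B6_DRA against B6_PBS, Ctla4 alone for KO_DRA against B6_PBS, and none for KO_DRA against B6_DRA.

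Ratios of 2 genes' counts within a library do not depend on how libraries are scaled. The log2 ratio of Ctla4 to Cd28 was 1.71 higher in B6_DRA than in B6_PBS, a 3.26-fold difference, and no library overlapped. Ctla4 relative to Cd247, which encodes the T cell receptor zeta chain, was 2.01 higher on the log2 scale. The ratio of Cd28 to Cd247 overlapped between the groups, with a difference of 0.30. Among the genes of antigen-presenting cells, Pdcd1lg2 was 0.82 higher and Cd80 0.49 higher relative to Cd86, and Cd40 was 1.19 lower relative to Cd86, each on the log2 scale and without overlap. The Cd40 to Cd86 count ratio was 3.20 and 3.22 in B6_PBS and 1.29, 1.23, 2.04, 1.26 and 1.35 in B6_DRA 3 to 7. For each ratio without overlap the exact two-sided permutation p was 0.0952, the smallest that 2 against 5 libraries allow, so none could pass a test (adjusted p = 0.286 over 30 ratio tests).

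**Figure D3:**
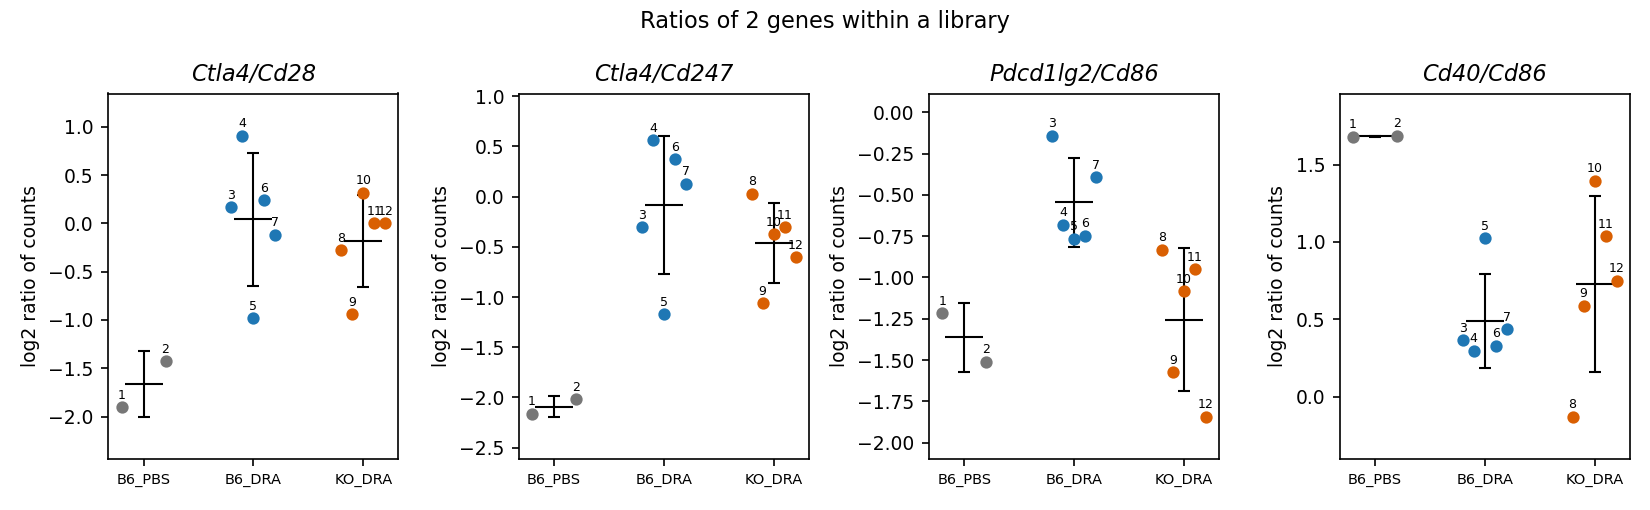
log2 ratio of the raw counts of 2 genes in the same library (vertical axis, 0.5 added to each count) for 4 ratios, by group, with replicate numbers, group means and SD. Ctla4 relative to Cd28 and to Cd247 is lowest in both B6_PBS libraries, all KO_DRA libraries lie below all B6_DRA libraries for Pdcd1lg2 relative to Cd86, and Cd40 relative to Cd86 is highest in B6_PBS.

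Between the genotypes under allergen, Pdcd1lg2 had the largest estimated difference of the 8 genes, with a KO_DRA level 0.513 times that of B6_DRA. No gene passed the test: 0 of 8 and 0% of all 665 by edgeR, with 1 of 8 and 12.3% of all genes at an unadjusted p under 0.05. DESeq2 called 0 of the 8 and 3 of all genes, and limma-voom called 0 and 0. Of the 8 estimates, 7 were lower in KO_DRA, as were 48.1% over all genes, and the groups overlapped for all 8, while 0.752% of all genes lay lower in KO_DRA without overlap. On library size alone 3 of the 8 estimates were lower, where the median of all genes stood at 0.36.

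Pdcd1lg2 stood at 155, 72.6, 58.9, 86.1 and 56.0 CPM in KO_DRA 8 to 12, against 99.1 to 224 CPM in B6_DRA. Every KO_DRA library but the one labelled KO_DRA 8 lay below all 5 B6_DRA libraries. The log2 fold change was -0.96 (SE 0.304, 95% interval -1.63 to -0.30, unadjusted p = 0.00817, edgeR adjusted p = 0.328). Without that library it was -1.28 and passed the test (edgeR adjusted p = 0.0349).

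Relative to Cd86, Pdcd1lg2 was lower in all 5 KO_DRA libraries than in all 5 B6_DRA libraries. The mean log2 ratio was -1.26 ± 0.433 (SD, n = 5) in KO_DRA and -0.55 ± 0.271 (SD, n = 5) in B6_DRA, with the library labelled KO_DRA 8 included. The difference of -0.71 had an exact two-sided permutation p of 0.00794, the smallest that 5 against 5 libraries allow, and an adjusted p of 0.238 over the 30 ratio tests, so it did not pass. It was -0.82 without the library labelled KO_DRA 8. Pdcd1 relative to Cd28 differed by -0.72 on the log2 scale, with overlap (exact permutation p = 0.0397, adjusted p = 0.286), and by -0.82 without that library.

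Cd80 stood at 229, 92.2, 85.3, 76.3 and 84.0 CPM in KO_DRA 8 to 12. The library labelled KO_DRA 8 was the highest of all 12, and the other 4 lay below every B6_DRA library, the lowest of which was 111 CPM. The log2 fold change was -0.49 (SE 0.300, 95% interval -1.14 to 0.17, edgeR adjusted p = 0.455), and -0.91 without that library, which passed the test (edgeR adjusted p = 0.0349). Cd86 stood at 276, 218, 126, 167 and 204 CPM, with a log2 fold change of -0.27 (SE 0.203, 95% interval -0.71 to 0.17, edgeR adjusted p = 0.503), and -0.42 without that library (edgeR adjusted p = 0.133).

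Among the receptors, Pdcd1 stood at 76.2, 49.0, 24.4, 24.6 and 42.0 CPM in KO_DRA 8 to 12, within or below the B6_DRA range. Its log2 fold change was -0.67 (SE 0.339, 95% interval -1.41 to 0.07, edgeR adjusted p = 0.389). Without the library labelled KO_DRA 8 it was -0.96 and still missed the threshold (edgeR adjusted p = 0.0536). Ctla4 stood at 122, 58.8, 81.2, 93.5 and 101 CPM, Icos at 191, 139, 104, 93.5 and 159.6 CPM, and Cd28 at 148, 114, 65.0, 93.5 and 101 CPM. The 95% intervals of their log2 fold changes ran from -0.84 to 0.30, from -0.65 to 0.23 and from -0.48 to 0.54. Cd40 stood at 252.5 CPM in the library labelled KO_DRA 8 and at 327.5, 333, 345 and 344 CPM in the others, with an interval of -0.29 to 0.19. Without that library the log2 fold changes were -0.40 for Ctla4, -0.36 for Icos, -0.13 for Cd28 and 0.021 for Cd40, and none of these 4 passed edgeR's test.

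Without the library labelled KO_DRA 8, 13.3% of 664 genes passed the test downward and 4.52% upward in KO_DRA against B6_DRA, beside Cd80 and Pdcd1lg2 of the 8. Leaving out any other single library called none of the 8 by edgeR. In the same fit 3 of 9 dendritic cell markers and 6 of 13 macrophage and monocyte markers passed downward, and 2 of 3 endothelial markers passed upward. The part these cell types had in the levels of Cd80 and Pdcd1lg2 was not tested.

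Compared with the same 2 B6_PBS libraries, KO_DRA showed Ctla4 alone of the 8 above the threshold, where 2.26% of all genes were called higher and 0% lower. Ctla4 was 4.94-fold higher, a log2 fold change of 2.30 (SE 0.430, edgeR adjusted p = 0.0375), against 5.95-fold in B6_DRA. It was 2.17 (edgeR adjusted p = 0.0325) without the library labelled KO_DRA 8. The call was lost in limma-voom (adjusted p = 0.0543) and without any 1 of B6_PBS 1, B6_PBS 2, B6_DRA 3, B6_DRA 4, KO_DRA 11 or KO_DRA 12, with log2 fold changes of 2.27 to 2.32. Pdcd1lg2 was 1.76-fold higher than in B6_PBS (95% interval of the log2 fold change -0.14 to 1.77, edgeR adjusted p = 0.205), against 3.43-fold in B6_DRA. Without the library labelled KO_DRA 8 it was 1.41-fold higher.

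Of the other genes, Pdcd1 was at 2.36-fold, Cd80 at 1.96-fold, Icos at 1.88-fold, Cd28 at 1.71-fold and Cd86 at 1.59-fold of B6_PBS, with edgeR adjusted p from 0.122 to 0.170. Without the library labelled KO_DRA 8 these 5 values were 1.91, 1.47, 1.70, 1.53 and 1.43, and none passed (edgeR adjusted p from 0.150 to 0.255). Ctla4, Icos, Pdcd1 and Cd80 lay above both PBS libraries in all 5 KO_DRA libraries, as did 22.3% of all genes. Cd40 lay below both PBS libraries in all 5, as did 17.6% of all genes, with a log2 fold change of -0.32 (SE 0.142, edgeR adjusted p = 0.170), and of -0.25 without the library labelled KO_DRA 8. The Cd40 to Cd86 count ratio of 3.20 and 3.22 in B6_PBS compared with 0.91, 1.5, 2.63, 2.05 and 1.68 in KO_DRA 8 to 12. Both comparisons with PBS share their 2 control libraries and are not independent.

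By mean level, B6_PBS was lowest for the 7 genes other than Cd40, and KO_DRA lay between B6_PBS and B6_DRA for 6 of them. For Cd28 the allergen groups had nearly equal means, 103 ± 22.4 CPM (SD, n = 5) in wild type mice and 104 ± 30.2 CPM (SD, n = 5) in the libraries labelled KO_DRA, or 93.3 ± 20.6 CPM (SD, n = 4) without KO_DRA 8. With all libraries, the B6_DRA and KO_DRA means did not differ beyond the fit's threshold for any of the 8. Pdcd1lg2 averaged 48.6 ± 15.2 CPM (SD, n = 2) with PBS, 167 ± 47.8 CPM (SD, n = 5) in wild type mice with allergen and 85.7 ± 40.5 CPM (SD, n = 5) in the libraries labelled KO_DRA, or 68.4 ± 13.9 CPM (SD, n = 4) without KO_DRA 8.

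Within the 10 allergen libraries, the ligands Cd80, Cd86 and Pdcd1lg2 varied with Pdcd1. Over 28 pairs of the 8 genes, Pearson's r of log2 CPM passed a permutation test with Benjamini-Hochberg adjustment for 8 pairs and Spearman's rho for 12, with 7 pairs passing both. The share passing among pairs of all genes was not computed, so these counts cannot be read as a trait of the 8. On library size alone r was below 0 for 10 of the 21 pairs without Cd40. Pdcd1 and Cd86 had r = 0.932 (permutation adjusted p = 0.00140) and rho = 0.939 (permutation adjusted p = 0.00896), and r = 0.907 without the 2 libraries farthest from the median of Pdcd1. Cd80 and Pdcd1lg2 had r = 0.903 (permutation adjusted p = 0.0189) and rho = 0.806 (permutation adjusted p = 0.0288). Their r was 0.991 without the 2 libraries farthest in Cd80, which include the library labelled KO_DRA 8. Pdcd1 and Cd80 had r = 0.858 and Icos and Pdcd1 r = 0.828, each with a permutation adjusted p of 0.0217.

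Cd40 passed with none of the other 7, with r from -0.59 to -0.29. Ctla4 and Cd28 had r = 0.12 (permutation adjusted p = 0.761). These correlations depend on the scaling: on library size alone r was 0.44 for Pdcd1 and Cd86, 0.64 for Cd80 and Pdcd1lg2 and 0.01 for Cd80 and Cd86, which had 0.787 on TMM. Each group holds 5 libraries, fewer than a correlation within a group needs, so differences between the groups enter these values. Among the 10 libraries, KO_DRA 10 was among the 3 lowest for 7 of the 8 genes, and B6_DRA 6, B6_DRA 7 and the library labelled KO_DRA 8 were each among the 3 highest for 6.

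**Figure D4:**
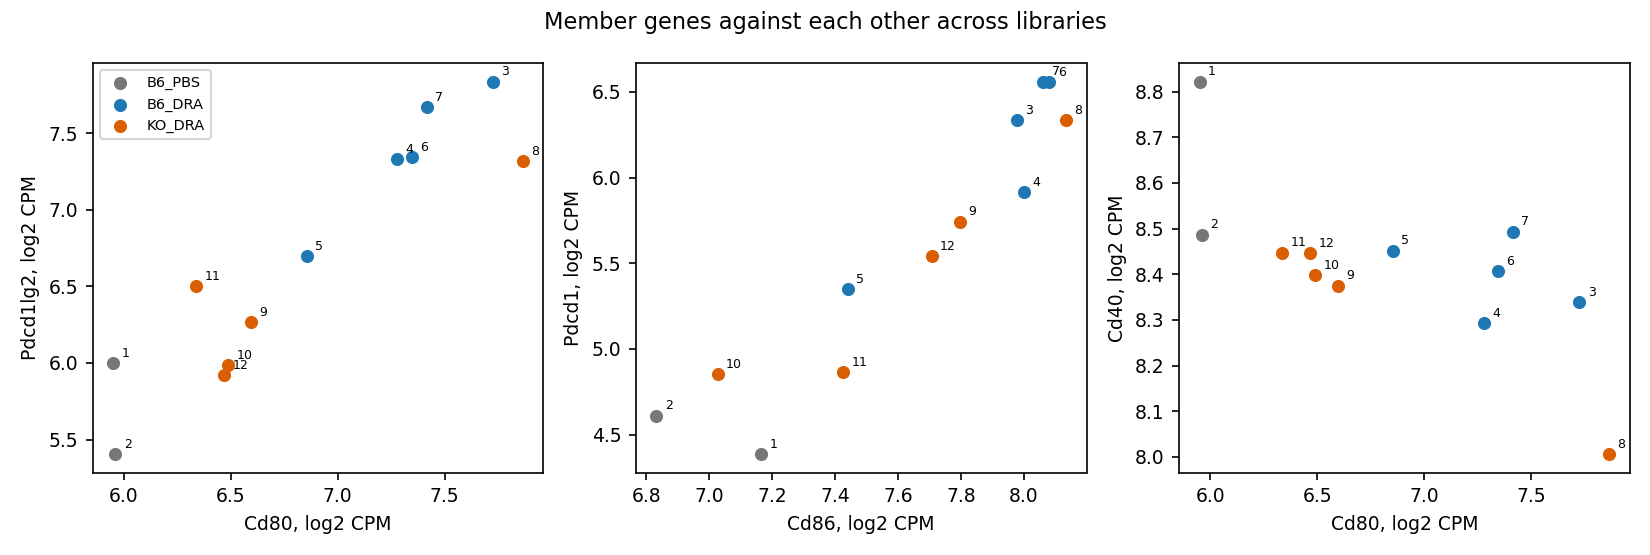
log2 CPM of Pdcd1lg2 against Cd80, Pdcd1 against Cd86 and Cd40 against Cd80 (both axes log2, prior count 2) in the 12 libraries, coloured by group and labelled by replicate. Across the 10 allergen libraries the first 2 pairs have r of 0.903 and 0.932 and the third -0.59, with the library labelled KO_DRA 8 at the lower right of the third.

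The genes of the panel most like each of the 8 across the 10 allergen libraries were named by the highest r of log2 CPM, as a description with no test and over libraries that share their scaling. Cd86 was most like Cd83, a marker of mature dendritic cells (r = 0.97), followed by Crip1 and Tmem173, the STING adaptor. Pdcd1 was most like Aoah, a lipopolysaccharide-inactivating enzyme (r = 0.95), then Selplg and Cd83. Pdcd1lg2 was most like Ccl11, the eosinophil attractant eotaxin (r = 0.95), then the kinase Btk. Cd80 was most like Anxa4 (r = 0.93), but that r was -0.24 on library size alone, and then Ndc80 and Laptm5.

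Icos was most like Flt3, a receptor of dendritic cells and their precursors (r = 0.95, and 0.90 on library size alone), followed by Aoah. Ctla4 was most like Rgs1, a regulator of G protein signalling in activated lymphocytes (r = 0.91), then Cdkn1a and Tlr4. Cd28 was most like H2-Q1 (r = 0.86), then the chemokine Ccl4 and the class I gene H2-K1. Cd40 was most like Golim4 (r = 0.84), but that r was 0.30 without the library labelled KO_DRA 8, and then Mmp8.

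Of 7 other members of the B7 and CD28 families that were measured, 0 passed the edgeR test in B6_DRA against B6_PBS, 1 had an unadjusted p under 0.05, and DESeq2 and limma-voom called 0. The closest were Vsir, an inhibitory receptor also called VISTA, at 1.30-fold (edgeR adjusted p = 0.0889), and Cd276, or B7-H3, at 1.33-fold (edgeR adjusted p = 0.110). Icosl, the ligand of ICOS, was at 1.12-fold (edgeR adjusted p = 0.257), with 425 and 368 CPM in B6_PBS and 429 to 484 CPM in B6_DRA. Whether these genes differ from the 8 in their change was not tested.

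Costimulatory genes of the tumour necrosis factor family rose in 3 of 7 measured cases. In this comparison 23.8% of all genes were called higher. Cd40lg, the T cell ligand of CD40, stood at 14.3 and 15.9 CPM in B6_PBS and 27.9 to 63.4 CPM in B6_DRA, a 2.94-fold rise (edgeR adjusted p = 0.0174). Tnfrsf4, the costimulatory receptor OX40, rose 1.83-fold (edgeR adjusted p = 0.0296). Tnfrsf9, or 4-1BB, was below background in both PBS libraries and above it in 4 of the 5 B6_DRA libraries, with 7 to 25 counts. Its B6_DRA mean was at least 3.05-fold higher, taken against the PBS background (edgeR adjusted p = 0.0318). Of 10 other inhibitory receptors listed 3 were measured, and all 3 rose: Lag3 at 2.05-fold, Havcr2 (TIM-3) at 1.67-fold and Cd244 at 1.43-fold. Their edgeR adjusted p were 0.0260, 0.04996 (at the threshold) and 0.0381, and limma-voom called 2. On library size alone 1 of the 7 and 0 of these 3 passed upward, beside 8.42% of all genes.

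Downstream of the T cell receptor and CD28, 2 of 7 measured genes rose, a share close to the 23.8% of all genes called higher. They were the transcription factor Nfatc2 at 1.81-fold and the exchange factor Vav1 at 1.82-fold (edgeR adjusted p = 0.0163 and 0.0174). On library size alone 0 of the 7 passed upward and 1 downward, beside 8.42% and 34% of all genes. In the CD40 signalling list, Birc3 rose 1.53-fold while the adaptors Traf1 and Traf6 fell, to 0.719 and 0.728 times B6_PBS, and the other 4 of 7 did not pass. Of all genes 18.2% were called lower. On library size alone 0 of these 7 passed upward and 3 downward. Of 9 genes of type 2 helper cells 3 rose, beside 23.8% of all genes. They were Il1rl1, the IL-33 receptor, at 3.6-fold, Ccr4 at 2.31-fold and Il13, which was below background in both PBS libraries, at least 3.29-fold. On library size alone 2 of these 9 passed upward and 2 downward. Of a separate list of 9 regulatory T cell genes, which leaves out Ctla4, only Tgfb1 was measured, at 1.23-fold (edgeR adjusted p = 0.234). Tgfb1 alone does not mark these cells, so whether they changed was not tested.

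Markers of the cells that carry these molecules moved as follows, where 23.8% of all genes were called higher and 18.2% lower in B6_DRA. Of the T cell markers 2 of 13 were on the panel, and neither passed: Cd247 stood at 1.38-fold and Cd27 at 0.797-fold, and their summed level was 113 to 139 CPM with PBS, 123 to 163 CPM in the B6_DRA libraries and 153 to 193 CPM in those of KO_DRA. Of 9 dendritic cell markers 6 rose in B6_DRA, with Cd83 at 2.63-fold and Irf4 at 3.50-fold, and of 13 macrophage and monocyte markers 7 rose, with Itgam at 2.35-fold and Cd68 at 4.08-fold. On library size alone, where 8.42% of all genes passed upward, 2 of the 9 and 1 of the 13 did so. Their summed levels were 1176 to 1383, 1854 to 3245 and 1348 to 3283 CPM for dendritic cells, and 5764 to 5989, 7548 to 12948 and 6178 to 15334 CPM for macrophages and monocytes, in B6_PBS, B6_DRA and KO_DRA. In KO_DRA the highest of both sums belonged to the library labelled KO_DRA 8 and the lowest to KO_DRA 10. Of the 2 B cell and 2 natural killer cell markers measured, 0 passed edgeR's test or had an unadjusted p under 0.05, and DESeq2 and limma-voom called 0, and all 3 endothelial markers fell, with Tek at 0.497 times B6_PBS. No marker named here was at 0 in any library, but Cd27 in B6_DRA 3, at 9 counts, was not above that library's background of 10.2 counts. The part of these cells in the changes of the 8 genes was not tested.

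All 8 MHC class II genes measured, which present antigen to the T cells that CD80 and CD86 costimulate, rose in B6_DRA on TMM scaling, and 0 of 8 passed on library size alone. Of all genes 23.8% and 8.42% were called higher in these 2 fits. H2-Ab1 stood at 5823 and 6553 CPM in B6_PBS and 11740 to 15464 CPM in B6_DRA, a 2.32-fold rise (edgeR adjusted p = 0.00584). Relative to H2-Ab1 neither Cd80 nor Cd86 separated the groups, with log2 differences of 0.22 and -0.27. In KO_DRA against B6_PBS, 5 of these 8 rose, 2 without the library labelled KO_DRA 8 and 0 on library size alone. Of all genes 15 of 665, 9 of 664 and 4 of 665 were called higher in these 3 fits. No gene of the other lists passed edgeR's test in any of them. Over all 77 genes of the lists, 27 had an unadjusted p under 0.05 in the edgeR fit of all libraries for that comparison, DESeq2 called 9 and limma-voom 4. Over all 665 genes these counts were 191, 55 and 10. In KO_DRA against B6_DRA, 0 of the 77 passed edgeR's test, 9 had an unadjusted p under 0.05, and DESeq2 and limma-voom called 0. Of all 665 genes 12.3% had an unadjusted p under 0.05 in that comparison. When KO_DRA 8 was left out, 13 of the 77 passed, beside 118 of all 664 genes. They were the 11 markers given above, 1 costimulatory gene of the tumour necrosis factor family and 1 gene of type 2 helper cells, both lower.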

How the data were processed

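Per the labels, RNA from 12 lung samples was measured with a NanoString panel. Raw counts of each probe, as whole numbers, were deposited by the authors (734 endogenous, 20 housekeeping, 8 negative and 6 positive controls) and, in other tables, a signal that is the same counts times 1 factor per library; the background setting of the export is unstated. R 4.2.0, edgeR and limma appear, with no role, in the submitters' processing notes.

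Endogenous counts were fitted with edgeR 4.0.16 in R 4.3.3: filterByExpr (minimum count 10, minimum total 15), TMM factors, and 1 quasi-likelihood model with a mean for each of 3 groups and 9 residual degrees of freedom. Tests were two-sided, with Benjamini-Hochberg adjustment over 665 genes at 0.05. Standard errors were the log2 fold change divided by the square root of F. log2 CPM used a prior count of 2. Background is the mean plus 2 SD of a library's negative controls, and a fold against a group below it is a lower bound. Ratios used 0.5 added to each count and exact permutation over libraries; correlations used 100000 resamples. The fit was tested on simulated data with known fold changes. Alternatives used DESeq2 1.42.0, limma 3.58.1, other scalings, filters and left-out libraries. All pairs of libraries within a group differed by more than sampling noise, the closest being both B6_PBS libraries (chi-square over degrees of freedom 5.58). The labels give 1 mouse per sample and no batch, and p-values reflect only how these samples spread.

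The 8 genes and the lists were chosen with earlier results of these data known. Named genes were the 8, Chil4, Cd247, H2-Ab1, up to 5 genes past the threshold in each list (otherwise the 2 with the smallest p), and the 3 most like each of the 8, of which some are not reported here; Cd274 and Icosl in B6_DRA were added after their values were seen. Genome positions and promoter sequences are RefSeq's for GRCm38.p6.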

Additional observations from a re-analysis of the deposited data

Results flagged for a closer look

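In groups of 5 libraries, the highest or lowest library was compared with the rest by its gap to the nearest library over the group's range, with a critical value of 0.71 for 5. Of 36 tests, over the 8 genes and 10 ratios in 2 groups, 6 passed, where chance gives about 1 in 20; genes of 1 library are not independent. B6_DRA 5 lay far below the other B6_DRA libraries for Ctla4 (0.831) and Cd86 (0.837), with 50.8 and 169 CPM. In the same library the Pdcd1 to Cd28 ratio was low (0.811) and the Cd40 to Cd86 ratio high (0.81). It also had the lowest Chil4 count of its group, 13020, and the lowest summed macrophage and dendritic cell markers, 7548 and 1854 CPM. The library labelled KO_DRA 8 lay far above the other KO_DRA libraries for Cd80 (0.831), at 229 CPM, and far below them for Cd40 (0.836), at 252.5 CPM. That library held 111850 counts of Chil4 and, of the KO_DRA group, the highest summed macrophage and dendritic cell markers, 15334 and 3283 CPM. The part of these marker levels in the values was not tested.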

How the results depend on the processing

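No paired analysis was possible because the replicate numbers run from 1 to 12 and no number is shared between groups. Over the alternatives the 8 genes kept their side of the threshold in 154 of 175 fits for B6_DRA against B6_PBS, with 20 losing it and 1 gaining it, and none changed direction. For KO_DRA against B6_DRA 164 of 175 kept direction and side, 2 gained a call and 9 changed direction, and for KO_DRA against B6_PBS 166 kept both, 7 lost and 2 gained a call. The cause was not tested unless stated.

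Leaving out 1 library moved the genes called for B6_DRA against B6_PBS from 279 to between 0 and 350, and the 8 to between 0 and 6; without a PBS library 1 sample stands for its group and is assumed to vary like the others. For KO_DRA against B6_DRA the ranges were 0 to 118 genes and 0 to 2 of the 8, and DESeq2 called 3 genes. For KO_DRA against B6_PBS, 15 genes became 4 on library size alone, 55 with DESeq2, 25 with limma on the authors' scaled values and 0 to 77 with 1 library left out; of the 8, DESeq2 called 2, limma-voom 0 and the fits with 1 library left out 0 to 2. On library size alone the higher to lower split for B6_DRA against B6_PBS was 56 to 226, and with the authors' factors 164 to 67, in place of 158 to 121.

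For KO_DRA against B6_DRA, library size alone turned Ctla4 to 0.0895, Icos to 0.12, Cd86 to 0.0628 and Cd40 to 0.33 on the log2 scale. Cd28, near 0, turned to -0.0180 with limma on scaled values, and with 1 library left out ran from -0.13 (without KO_DRA 8) to 0.16; it was also below 0 without B6_DRA 4 or KO_DRA 9. Cd40 ran from -0.0805 to 0.0214, the latter without KO_DRA 8. For KO_DRA against B6_PBS, log2 ratios crossed 0 with 1 library left out: Icos to Cd28 (-0.24 to 0.48) and Pdcd1 to Cd28 (-0.0459 to 0.74) turned without B6_PBS 1, Pdcd1lg2 to Cd86 (-0.0399 to 0.25) without B6_PBS 2, and Cd28 to Cd247 (-0.0224 to 0.31) without B6_PBS 2 or KO_DRA 8. The likeness of Cd80 and Anxa4 turned to -0.24 on library size alone; of the 24 most alike genes, 6 were shared on library size and 13 without KO_DRA 8. With a minimum count of 30 in place of 10 Pdcd1 was not tested. Adding the housekeeping probes to the fit, chosen after seeing the data, changed no call of the 8. Ctla4 and Pdcd1 in B6_PBS rest on 8 to 10 counts.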
